A study of Mus musculus with 8 samples.

Results

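The genes described here are 10 lysosomal proteases and protease inhibitors of the mouse liver: the cathepsins Ctsa, Ctsb, Ctsc, Ctsd, Ctsh, Ctsl, Ctss and Ctsz and the cystatins Cstb and Cst3. They were chosen by symbol from a list of lysosomal protease and inhibitor genes, and all 10 are among the 24079 symbols present in both assays. One member, Cstb, was noted for its higher level in both assays when the list was drawn up, so its values chose it and are given as a description without a test. The other 9 were listed for what they are, although results of these data were already known at that point.

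The samples were livers of male C57BL/6 mice at postnatal week 25. From week 8 the HF group ate a high-fat chow in which fat supplied 45% of the energy, and mice of the HB group were kept on the same chow with 2% (w/v) betaine dissolved in their water. Betaine (trimethylglycine) is a methyl donor and osmolyte, and the question was how it changes mRNA abundance and translation in the liver of mice on this diet. RNA-seq of polyadenylated RNA and Ribo-seq of ribosome-protected fragments (RPFs) gave 2 libraries per group and assay, 8 in all, named HF1, HF2, HB1 and HB2 in each. Both groups shared the diet, and mice on a standard diet were not analysed here. The sequenced mice, 2 of 6 per group, were those nearest to the mean body weight, while the labels describe pooled RNA preparations. The libraries are therefore counted as libraries and not as mice, and p-values measure the spread between them, which may be technical. The labels also give 25 weeks on the diet, which cannot be joined with a start at week 8 and collection at week 25.

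Cathepsins are made as inactive precursors, sorted to the lysosome by the mannose 6-phosphate receptors and activated there by acid and by cleavage. They belong to different catalytic classes: Ctsd is an aspartic protease, Ctsa a serine carboxypeptidase, and Ctsb, Ctsl, Ctss, Ctsh, Ctsc and Ctsz are cysteine proteases. Cystatins are tight-binding inhibitors of the cysteine class: Cstb (cystatin B) acts inside the cell, in the cytosol and nucleus, and Cst3 (cystatin C) is secreted. In liver, cathepsins are made by hepatocytes and by Kupffer cells, the resident macrophages. Many lysosomal genes share an E-box of the letters TCACGTGA near their start, which is bound by Tfeb and its relatives.

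Promoter windows are shown first, so that this E-box can be set beside how the mRNA of each gene moved. RefSeq promoters (GRCm38.p6, 250 bases before to 50 after the start site) were matched for 7 of the 10 genes in 8 windows, and Ctsb, Ctsh and Cstb had no entry. The 3 windows with the E-box core are printed 5′ to 3′ on the strand of the gene. Capitals mark CACGTG on either strand and, where they adjoin it, the further letters of TCACGTG or TCACGTGA.
Ctsd, chr7:142387778-142388077, minus strand: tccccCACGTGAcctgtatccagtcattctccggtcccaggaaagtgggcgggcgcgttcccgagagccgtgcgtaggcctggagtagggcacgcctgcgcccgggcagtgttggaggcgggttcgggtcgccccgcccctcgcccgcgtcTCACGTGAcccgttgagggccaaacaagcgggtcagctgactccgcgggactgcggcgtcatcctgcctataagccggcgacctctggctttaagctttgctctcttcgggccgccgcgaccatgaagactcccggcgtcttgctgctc
Ctsa, second start site, chr2:164833523-164833822, plus strand: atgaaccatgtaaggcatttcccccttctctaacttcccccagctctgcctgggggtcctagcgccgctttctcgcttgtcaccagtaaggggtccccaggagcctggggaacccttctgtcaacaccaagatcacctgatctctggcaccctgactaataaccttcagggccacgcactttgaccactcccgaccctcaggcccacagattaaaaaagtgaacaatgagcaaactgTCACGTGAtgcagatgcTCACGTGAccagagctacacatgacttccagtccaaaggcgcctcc
Ctsl, chr13:64370471-64370770, minus strand: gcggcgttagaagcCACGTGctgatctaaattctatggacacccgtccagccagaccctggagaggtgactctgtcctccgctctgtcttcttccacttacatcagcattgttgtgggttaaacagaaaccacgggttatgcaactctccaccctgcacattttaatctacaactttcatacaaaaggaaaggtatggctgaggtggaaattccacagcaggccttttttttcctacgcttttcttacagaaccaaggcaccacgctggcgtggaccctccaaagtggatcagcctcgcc
In Ctsd the 8-letter form TCACGTGA begins 99 bases before the start site, and a further CACGTG lies 245 bases before it. The second window of Ctsa holds TCACGTGA at 2 places, beginning 13 bases before and 4 bases after the start site. In the Ctsl window only the core is present, 236 bases before its start site. That window lies inside the annotated gene, whose 5′ end is at 64370890, and bases before that end were not searched. No CACGTG was found in the windows of Cst3, Ctsc, Ctss and Ctsz or in the first window of Ctsa. Of all 32851 promoter windows in the table, 7.15% hold CACGTG on either strand, and 0.974% hold TCACGTGA, every match of which also counts as CACGTG. Of the 10717 windows of genes tested here, 10.2% hold CACGTG and 1.92% TCACGTGA. As described next, the mRNA of Ctsd and Ctsl was called higher in HB, while that of Ctsa had a lower mean with an interval that includes 0. Among the genes with no match, Ctss mRNA was higher at an adjusted p under 0.05 in limma, the HB values of Cst3 and Ctsz lay above their HF values, and those of Ctsc overlapped. A match of letters is a description, and binding was not measured.

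Levels are RPKM, the reads of a gene scaled by its length and by the total of its library, which allows genes to be set side by side within an assay. In HF livers the mRNA levels ran from 160 ± 20.6 RPKM (SD, n = 2) for Cst3 and 135 ± 3.06 for Ctsz down to 7.83 ± 2.76 for Ctss and 3.68 ± 0.141 for Ctsc. Ctsb, Ctsd and Ctsa stood next to each other at 79.9 ± 5.73, 78.3 ± 3.39 and 74.1 ± 2.85 RPKM, and their libraries overlapped. In HB livers Ctsd, at 201 ± 4.47 RPKM, stood in the second place beside Ctsz at 196 ± 55.9, and the 2 genes overlapped. Ctsa, at 53.9 ± 10.7 RPKM, stood in the eighth place, where it overlapped Cstb at 65.0 ± 6.28. The order of the RPF levels in HF livers was led by Cst3, Ctsd and Ctsb at 158 ± 23.6, 156 ± 11.9 and 151 ± 11.6 RPKM, which overlapped, and it ended with Ctsc at 16.5 ± 2.03.

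**Figure D1:**
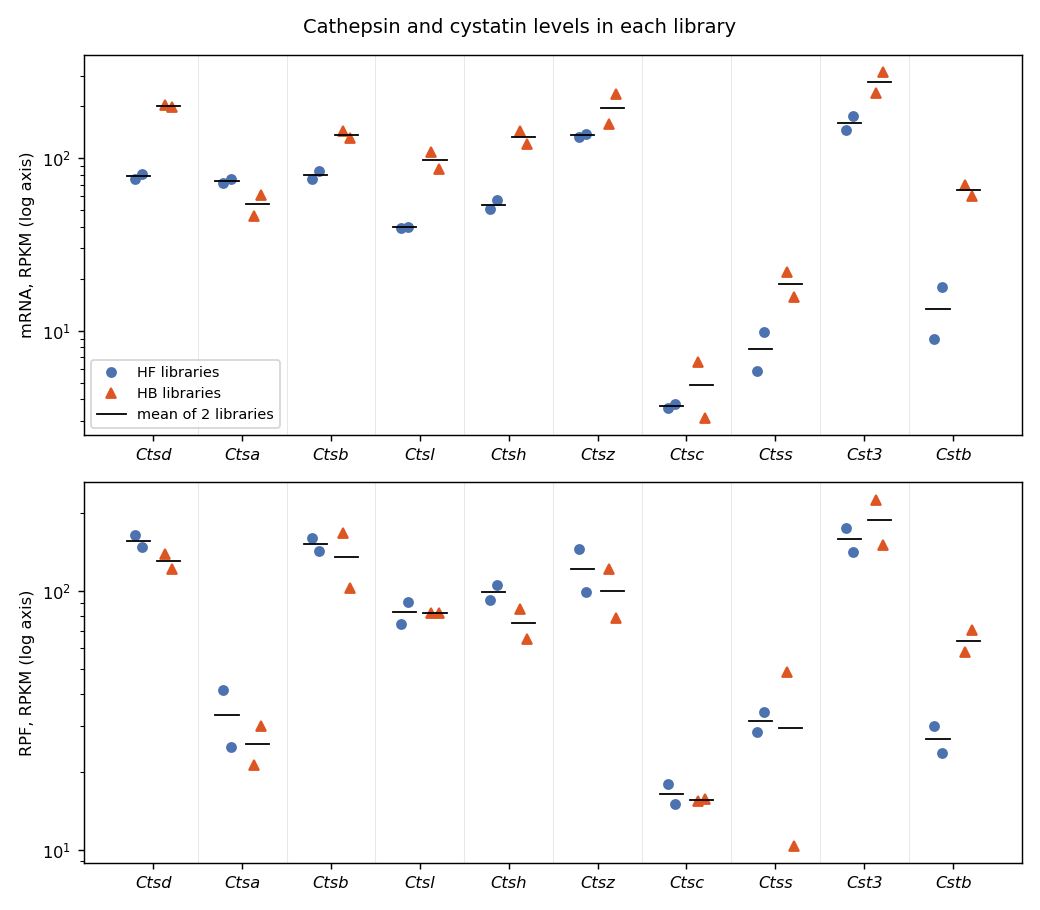
Levels of the 10 genes in mRNA (upper panel) and RPF (lower panel) in RPKM on log axes, with a circle for each HF library, a triangle for each HB library and a bar at the mean of 2 libraries. In mRNA both triangles lie above both circles for 8 genes, and in RPF only for Cstb.

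The depth behind these values differed between assays. From the steps of 1 read between low values, the totals came to between 11661207 and 22543471 reads for the RNA-seq libraries and to 387980, 1056546, 257086 and 141890 reads for the Ribo-seq libraries HF1, HF2, HB1 and HB2. A member rested on 63 reads or more in every RNA-seq library, but on only 2 to 69 reads in the Ribo-seq library HB2. The 2 HB Ribo-seq libraries correlated less with each other (r = 0.749 across genes) than any HF library did with any HB library (0.784 to 0.840), so RPF differences are also given with a library left out. Over all genes, 246 of 10687 were called higher and 701 lower in mRNA, which became 540 and 291 when all libraries were shifted to a common median. In RPF 177 of 11190 were called higher and 879 lower, against 349 and 421 with a common median and 41 and 2659 with a common sum. The hepatocyte markers, at a summed mRNA level of 47870 to 54010 RPKM, were high in every library.

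Of the 8 cathepsin mRNAs, 7 had a positive difference between HB and HF, and 3 of them, Ctsd, Ctsh and Ctsl, were called higher, each by about the same factor. Differences are given on the scale of log2(RPKM + 1), as HB minus HF, from limma fitted on all tested genes. A gene was called at a log2 difference beyond 1 with an unadjusted p under 0.001, the thresholds of the study, and p-values adjusted by Benjamini-Hochberg over all genes stand beside them. Of the 9 genes other than Cstb, 3 were called higher, while 2.30% of all genes tested were, and 0 were called lower, while 6.56% of all genes were (0 at an unadjusted p under 0.05 in limma, and 0 called with voom). In 7 of the 9, both HB libraries were above both HF libraries, against 24.8% of all genes, and in 1, Ctsa, both were below, against 43.3%. An adjusted p under 0.05 with a higher level in HB was reached by 5 of the 9, against 7.92% of all genes, and with a lower level by 0, against 19.1%. The median difference of the 9 genes was 0.78, and that of all tested genes was -0.19. Whether more cells of a type or more RNA per cell lies behind a higher level cannot be told apart in these bulk samples.

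Ctsd, the main aspartic protease of the lysosome (chr7:142375911-142388038, minus strand, GRCm38), was measured at 75.9 and 80.7 RPKM in HF and at 204 and 198 RPKM in HB mRNA. The groups were far apart and the libraries of each were close together, a 2.56-fold higher mean with a log2 difference of 1.35 ± 0.25 (SE, limma adjusted p = 0.00740). In RPF the same gene was at 164 and 147 RPKM in HF and at 138 and 121 RPKM in HB. Both HB libraries were thus lower in RPF, but the difference of -0.26 had a 95% interval of -0.94 to 0.41, became 0.06 with a common median, ranged from -0.35 to -0.17 with a library left out, and stands beside a median of -0.43 over all genes. Of its exon bases, 34.4% are shared with the gene model Gm49369 on the same strand, so reads could be split between them.

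Ctsa, the serine carboxypeptidase that also protects beta-galactosidase and neuraminidase in the lysosome (chr2:164832873-164841032, plus strand), was the only one of the 8 cathepsins described here with a lower mean mRNA level in HB. Its mRNA was at 72.1 and 76.1 RPKM in HF and at 46.4 and 61.5 RPKM in HB. The groups did not overlap, but the log2 difference of -0.46 had an interval of -1.05 to 0.12 (limma adjusted p = 0.208). Its RPF levels were 41.4 and 24.9 RPKM in HF and 21.2 and 29.9 RPKM in HB, which overlapped. Exons of Pltp, on the opposite strand, cover 10.5% of the exon bases of Ctsa, and the library kit kept no strand. Pltp mRNA, at 36.6 and 27.7 RPKM in HF, was at 73.2 and 57.9 RPKM in HB, the opposite direction to Ctsa.

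Ctsh, an aminopeptidase (chr9:90054152-90076089, plus strand), and Ctsl, an endopeptidase of broad specificity (chr13:64359337-64370890, minus strand), were the called cysteine cathepsins. Ctsh mRNA was at 50.4 and 57.1 RPKM in HF and at 143 and 121 RPKM in HB. Ctsl mRNA was at 39.4 and 40.0 RPKM in HF and at 108 and 86.2 RPKM in HB. For each gene the lowest HB library was more than 2-fold above the highest HF library. The log2 difference was 1.28 ± 0.25 for Ctsh (limma adjusted p = 0.00909) and 1.26 ± 0.25 for Ctsl (adjusted p = 0.00928). An antisense gene, Gm47123, covers 26.8% of the exon bases of Ctsl, and its reads cannot be told from those of Ctsl without strand.

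In RPF neither gene was called. Ctsh was at 91.7 and 105 RPKM in HF and at 84.6 and 65.0 RPKM in HB, with both HB libraries lower and a log2 difference of -0.40 (95% interval -1.16 to 0.36) that ranged from -0.59 to -0.21 with a library left out. Ctsl was at 74.2 and 90.6 RPKM in HF and at 82.0 and 82.4 RPKM in HB. The HB values of Ctsl lay between the HF values, with a log2 difference of 0.00 and an interval of -0.72 to 0.72. The interval of its mRNA difference, 0.69 to 1.83, overlaps that of RPF.

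Ctsb and Ctss had higher mRNA in HB at an adjusted p under 0.05 without passing the thresholds of a call. For Ctsb the adjusted p ranged from 0.0215 to 0.334 over the alternatives and for Ctss from 0.00191 to 0.201, and with no filter on low values none of the 5 genes stayed under 0.05 (0.0539 to 0.0818). Ctsb, an abundant cysteine protease that acts as endopeptidase and as carboxypeptidase (chr14:63122462-63145923, plus strand), was at 75.8 and 83.9 RPKM in HF and at 143 and 130 RPKM in HB mRNA, a log2 difference of 0.77 ± 0.25 (limma adjusted p = 0.0471). Its RPF levels, 159 and 143 RPKM in HF and 167 and 103 RPKM in HB, overlapped. Exons of Fdft1, on the opposite strand, cover 12.8% of the exon bases of Ctsb, and Fdft1 mRNA was at 10.1 and 12.99 RPKM in HF and at 31.5 and 24.4 RPKM in HB. The level of Fdft1 thus lay well under that of Ctsb in every library but moved in the same direction, and its part in the Ctsb value was not tested.

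Ctss, which cleaves the invariant chain of MHC class II in antigen-presenting cells (chr3:95526786-95556403, plus strand), was at 5.88 and 9.79 RPKM in HF and at 21.9 and 15.6 RPKM in HB mRNA. The groups were apart, with a log2 difference of 1.18 ± 0.30 (limma adjusted p = 0.0203). In RPF it was the least certain of the cathepsins, at 28.4 and 34.1 RPKM in HF and at 48.6 and 10.4 RPKM in HB. The HB libraries lay on either side of the HF libraries. The value of 10.4 RPKM in HB2 rested on 2 reads, with an exact Poisson 95% interval of 1.25 to 37.4 RPKM that covers counting error only. Leaving out HB2 turned the RPF difference of Ctss from -0.44 to 0.63, and leaving out HB1 turned it to -1.50.

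Ctsz and Ctsc did not pass a test in either assay. Ctsz, a carboxypeptidase also known as cathepsin X (chr2:174427493-174439039, minus strand), was at 133 and 138 RPKM in HF and at 156 and 235 RPKM in HB mRNA. Both HB libraries were higher but far from each other, and the log2 difference of 0.50 had an interval of -0.14 to 1.14. Ctsc, the dipeptidyl peptidase that activates serine proteases of immune cell granules (chr7:88278085-88310888, plus strand), was at 3.58 and 3.78 RPKM in HF and at 6.57 and 3.13 RPKM in HB mRNA. Here the HB libraries enclosed the HF libraries. Its RPF levels were nearly the same in all libraries, 17.9 and 15.0 RPKM in HF and 15.4 and 15.7 RPKM in HB, with an interval of the log2 difference from -1.06 to 0.92.

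For both inhibitors the mRNA values of the HB libraries lay above those of the HF libraries, by unequal amounts. Cst3 (chr2:148871722-148875692, minus strand) was at 145 and 175 RPKM in HF and at 240 and 315 RPKM in HB mRNA, which did not overlap. The log2 difference was 0.78 ± 0.28, short of the threshold after adjustment (limma adjusted p = 0.0608). In RPF Cst3 was at 175 and 142 RPKM in HF and at 225 and 151 RPKM in HB. These values overlapped, and the log2 difference of 0.22 had an interval of -0.61 to 1.06.

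Cstb (chr10:78425669-78427622, plus strand), selected on these values, was at 8.97 and 17.8 RPKM in HF and at 69.4 and 60.5 RPKM in HB mRNA. Its mean was 4.85-fold higher in HB, a log2 difference of 2.26, the largest of the 10 genes. In RPF it was at 30.0 and 23.6 RPKM in HF and at 58.1 and 70.2 RPKM in HB, a 2.40-fold higher mean. The log2 difference in RPF was 1.23, and it depended on the scaling, at 0.38 with a common sum and 1.56 with a common median, while leaving out a library gave 1.07 to 1.40. In the deposited scale both assays placed both HB libraries above both HF libraries, which is the pattern for which the gene was picked. The mRNA values rested on 63, 127, 942 and 659 reads in HF1, HF2, HB1 and HB2, and the RPF values on 7, 15, 9 and 6 reads. With so few RPF reads the exact Poisson 95% intervals were 12.1 to 61.7 and 13.2 to 38.9 RPKM in HF and 26.6 to 110 and 25.8 to 153 RPKM in HB. Those intervals overlapped between the groups.

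Set against the summed level of the 6 cysteine cathepsins in the same library, Cstb mRNA amounted to 2.91% and 5.37% in HF and to 12.0% and 10.2% in HB. For RPF these shares were 5.80% and 4.85% in HF and 11.2% and 19.8% in HB. The RPF shares rest on 7, 15, 9 and 6 Cstb reads in HF1, HF2, HB1 and HB2. As Cstb was picked for its level in both assays, its shares repeat that choice and were not tested. Cst3 mRNA amounted to 47.2% and 52.6% of the same sum in HF and to 41.4% and 53.3% in HB, so its HF and HB libraries overlapped. Its RPF shares were 33.9% and 29.1% in HF and 43.3% and 42.5% in HB, and these did not overlap. The HB2 share rests on 17 Cst3 reads (exact Poisson 95% interval of the level 87.7 to 241 RPKM). The RPF levels of Cst3 themselves overlapped between the groups, and the separation of the shares was not tested. The summed mRNA level of the 6 cysteine cathepsins was 308 and 332 RPKM in HF and 579 and 591 RPKM in HB. Their summed RPF level was 517 and 487 RPKM in HF and 520 and 354 RPKM in HB, which overlapped.

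Of the 9 genes other than Cstb, 0 were called in RPF in either direction, where a call needs a log2 difference beyond 1 with an unadjusted p under 0.05. Among all genes 1.58% were called higher and 7.86% lower in RPF. In limma 0 of the 9 genes had an unadjusted p under 0.05, and with voom on recovered reads 0 were called. Both HB libraries were above both HF libraries in 0 of the 9, against 9.07% of all genes, and below in 2, Ctsd and Ctsh, against 33.2%, which is near that background. The 9 differences ran from -0.44 to 0.22 with a median of -0.26, beside a median of -0.43 over all genes. The smallest adjusted p of any gene in RPF was 0.108, so no tested gene passed after adjustment at this depth. A missed threshold does not show that RPF levels were equal, and all intervals but those of Ctsd and Ctsl reached beyond a log2 difference of 1 in at least 1 direction.

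**Figure D2:**
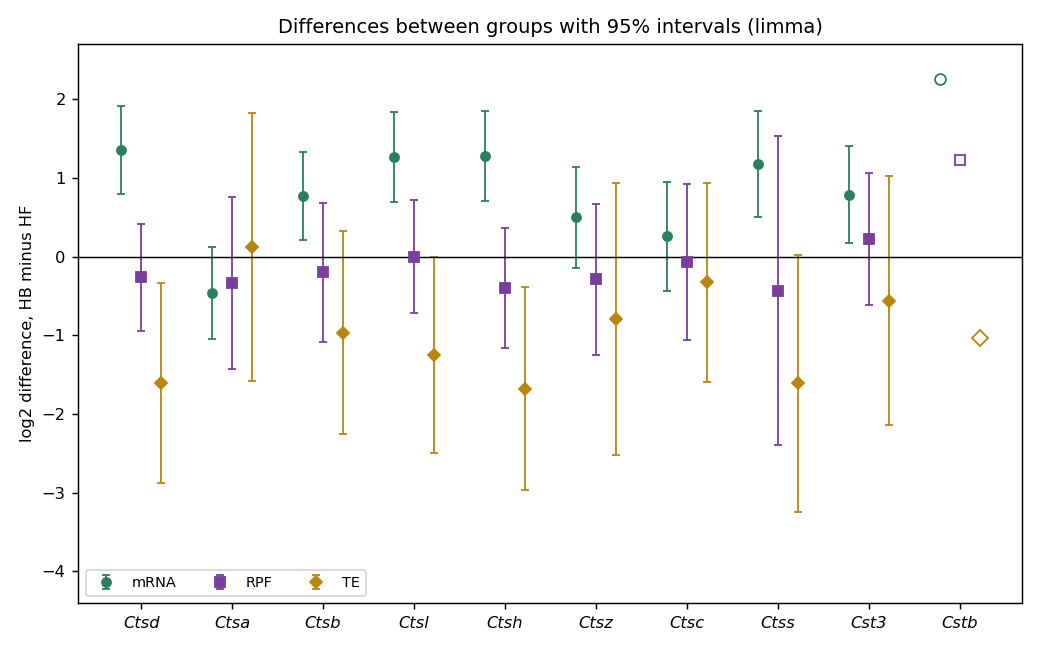
Log2 differences (HB minus HF) of the 10 genes in mRNA (circles), RPF (squares) and TE (diamonds), with 95% intervals from limma; Cstb is drawn with open symbols and no interval because its values chose it. The mRNA points of 9 genes lie above 0, and the TE points of 9 genes lie below it.

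Translation efficiency (TE) is the RPF level divided by the mRNA level of the library with the same group and number, and it was tested as the difference of log2((RPF + 1)/(mRNA + 1)). In HF livers Ctsd carried 2.16 and 1.82 RPF per mRNA unit, and in HB livers 0.677 and 0.614. Ctsh was at 1.82 and 1.85 in HF and at 0.591 and 0.540 in HB. Ctsl was at 1.88 and 2.26 in HF and at 0.762 and 0.956 in HB. For these 3 genes every HF value was above 1 and every HB value below it, and the mean ratio was 3.09-fold, 3.24-fold and 2.42-fold lower in HB.

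The log2 TE difference was -1.61 for Ctsd (95% interval -2.88 to -0.34), -1.68 for Ctsh (-2.97 to -0.39) and -1.25 for Ctsl (-2.50 to -0.01). These 3 genes had an unadjusted p under 0.05 in limma, at 0.0209, 0.0189 and 0.0486, and adjusted p-values of 0.364, 0.364 and 0.407. A TE call needs a log2 difference beyond 2 with an unadjusted p under 0.05, and 0 of the 9 genes had one in either direction, nor in a model with an interaction of group and assay. With RPKM rescaled to a common sum, 4 of the 9 (Ctsd, Ctsh, Ctsl and Ctss) were called lower in TE, as were 14.1% of all genes, and without HB1 1 was (Ctss), as were 13.4%. Among all genes 1.49% were called higher and 4.60% lower in TE, and the smallest adjusted p of any gene was 0.328. Both HB ratios were below both HF ratios in 5 of the 9 (Ctsb, Ctsd, Ctsh, Ctsl and Ctss), against 31.9% of all genes, and above in 0, against 13.2%. The median TE difference of the 9 genes was -0.97, and that of all genes was -0.35. The TE medians of the macrophage and stellate cell markers were -1.06 and -1.02. Of 17 macrophage markers 2 were called lower, Lyz2 and Cd68. The RPF of Cd68 was listed at 0 in both HB libraries, so it passed the filter through HF alone. Of 7 stellate markers 0 were called (0 higher and 1 lower at an unadjusted p under 0.05 in limma). The part of these cells in the TE of the 9 genes was not tested.

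The remaining members varied more, and whether their groups lay apart is given for the pairing by number. Ctsb was at 2.10 and 1.70 in HF and at 1.17 and 0.786 in HB, apart but with an interval of the log2 difference from -2.26 to 0.32. Ctss was at 4.84 and 3.49 in HF and at 2.22 and 0.666 in HB, the last resting on the 2 reads named above. Ctsc was at 5.00 and 3.97 in HF, overlapping Ctss, and at 2.35 and 5.03 in HB, and Ctsa had the lowest HF ratios of the 10, at 0.574 and 0.328 in HF and 0.457 and 0.486 in HB. Neither gene had separate groups. Ctsz was at 1.09 and 0.717 in HF and at 0.777 and 0.333 in HB, and Cst3 at 1.20 and 0.811 in HF and at 0.938 and 0.477 in HB, which overlapped too. Cstb was at 3.34 and 1.32 in HF and at 0.838 and 1.16 in HB, apart by a small margin. The gene lengths behind the RPKM differed between the assays for Ctsa (3548 bases in RNA-seq, 3301 in Ribo-seq), Ctsc (3733 and 4031), Ctsd (1954 and 1917) and Ctss (1357 and 1360), which moves the level of their TE and not its difference between groups.

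**Figure D3:**
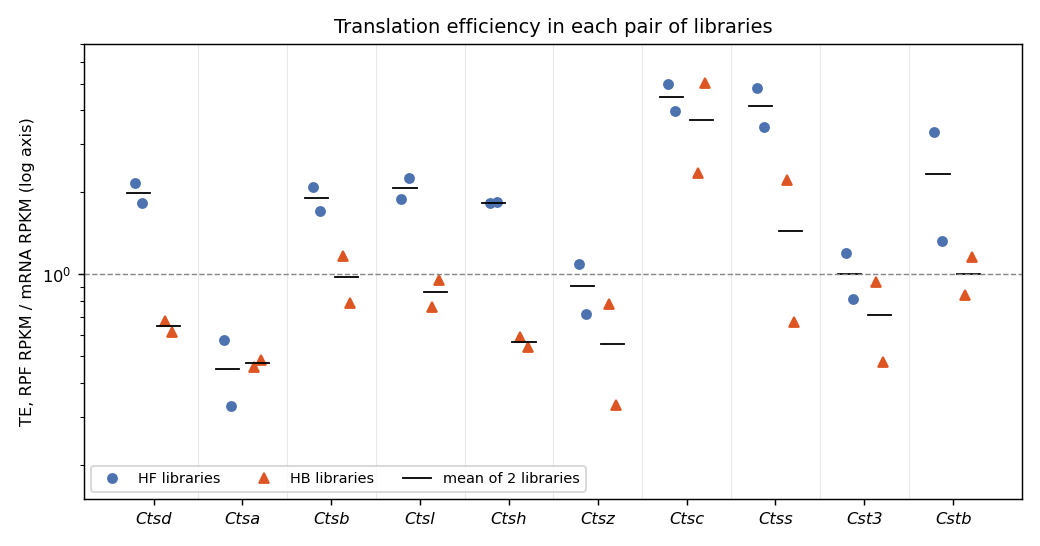
TE of the 10 genes (RPF RPKM divided by mRNA RPKM, log axis), with a circle for each HF pair of libraries, a triangle for each HB pair, a bar at the mean and a dashed line at 1. Ctsd, Ctsh and Ctsl have their circles above 1 and their triangles below it, while Ctsa lies below 1 in all 4 pairs.

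The mRNA calls changed when a single library was left out, which leaves a group of 1 library whose spread is taken from the other group. Without HF1 0 of the 9 genes were called, without HF2 only Ctss, without HB1 Ctsd and Ctsh, and without HB2 these 2 with Ctsl and Ctss. The log2 differences themselves, with fewer libraries behind each test, stayed between 1.30 and 1.39 for Ctsd, 1.15 and 1.40 for Ctsh, and 1.10 and 1.42 for Ctsl.

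The relatives of these genes were mostly under the mean of 1 RPKM that a test required, and none of them was called in mRNA. Of 14 other cathepsins, 3 were tested in mRNA, and 0 were called (1 higher at an unadjusted p under 0.05 in limma). These 3, named after their values were seen, were Ctso with a log2 difference of 0.80 (adjusted p = 0.0799), Ctsf with -0.20 and Ctsk with -0.41. Of 19 other cystatins and cystatin-domain proteins, 5 were tested, all of them plasma proteins secreted by hepatocytes, and 0 were called in mRNA (1 higher and 1 lower at an unadjusted p under 0.05). Ahsg (fetuin-A) mRNA was at 1610 and 2084 RPKM in HF and at 3219 and 3831 RPKM in HB. Fetub (fetuin-B) mRNA went the other way, at 630 and 751 RPKM in HF and at 246 and 407 RPKM in HB, a log2 difference of -1.12 (limma adjusted p = 0.0295). Hrg, Kng1 and Kng2, the other 3, had differences between -0.35 and 0.28. Ahsg and Fetub were also named after their values were seen.

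Other genes of the lysosome were counted in the same fits, in which 2.30% of all genes were called higher and 6.56% lower in mRNA, 1.58% and 7.86% in RPF, and 1.49% and 4.60% in TE. At an adjusted p under 0.05 in limma, 7.92% of all genes were higher and 19.1% lower in mRNA. The share at an unadjusted p under 0.05 was not counted, so counts at that threshold, here and elsewhere, stand without a background. Of 38 hydrolases outside the cathepsin family, all tested, 1 was called higher, near the share of all genes, and 0 lower in mRNA. In limma 10 were higher and 3 lower at an unadjusted p under 0.05, and 6 higher and 1 lower at an adjusted p under 0.05. The median was 0.14. The called gene was Lipa, the acid lipase that frees cholesterol and fatty acids from lipoprotein esters, at 22.8 and 22.03 RPKM in HF and at 58.5 and 47.4 RPKM in HB. In RPF 0 hydrolases were called higher and 2 lower, near the share of all genes called lower, with a median of -0.58, and the called genes were Gusb (beta-glucuronidase) and Lgmn (legumain). Lgmn is an asparaginyl protease that processes several cathepsins to their mature chains. Its RPF level was 38.5 and 26.4 RPKM in HF and 17.4 and 7.03 RPKM in HB, a log2 difference of -1.44 (limma adjusted p = 0.496), while its mRNA was at 9.96 and 11.4 RPKM in HF and at 21.0 and 19.9 RPKM in HB. Lgmn was also the 1 hydrolase called in TE, lower in HB by a log2 difference of -2.31 (adjusted p = 0.334).

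Of 18 lysosomal membrane and lipid transfer proteins, 3 were called higher and 0 lower in mRNA, with a median of 0.26. In limma 6 were higher and 1 lower at an unadjusted p under 0.05, and 5 higher and 1 lower at an adjusted p under 0.05. Lamp1, an abundant glycoprotein of the lysosomal membrane, was at 61.6 and 80.3 RPKM in HF and at 269 and 220 RPKM in HB, a log2 difference of 1.77 ± 0.27 (limma adjusted p = 0.00526). Npc2, which hands cholesterol to Npc1, had a difference of 1.43, and Laptm4b, a membrane protein of late endosomes, of 1.29. In RPF Lamp1 was at 328 and 265 RPKM in HF and at 255 and 275 RPKM in HB. The values overlapped, as for Ctsl. In RPF 1 gene of this list, Cln3, was called lower, at 3.219 and 2.955 RPKM in HF and 0 in both HB libraries. It passed the filter through HF alone. As 3 reads on a gene of 1 kb equal 11.7 RPKM in HB1 and 21.1 RPKM in HB2, such a level could be missed there, and nothing is drawn from the call.

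Of 15 subunits of the V-ATPase, the proton pump that acidifies the lysosome, 2 were called higher in mRNA, Atp6v0e (1.25) and Atp6v1e1 (1.27), and 0 lower (0 at an unadjusted p under 0.05), with a median of 0.22. Atp6v0e was called lower in TE, with a difference of -2.26. Of 10 tested genes for sorting to the lysosome, 1 was called lower in mRNA, Gga3 (-1.36), an adaptor that recruits cargo at the trans-Golgi, and 0 higher (1 at an unadjusted p under 0.05). Of 16 autophagy genes 0 were called in mRNA, and 2 were called lower in RPF, Map1lc3b (-1.08) and Atg5 (-1.11). In mRNA 6 were higher and 3 lower at an unadjusted p under 0.05 in limma, and 4 higher and 0 lower at an adjusted p under 0.05.

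Among 14 tested regulators of lysosomal genes, 1 was called higher in mRNA, Lamtor1 (1.30), a scaffold of the Ragulator complex, and 2 lower. The lower genes were Zkscan3 (-1.78), a repressor of autophagy and lysosomal genes, at 56.5 and 69.0 RPKM in HF and 16.95 and 18.0 RPKM in HB, and Flcn (-1.38), the folliculin subunit that acts on Rag GTPases. Tfeb, named here for its binding to the E-box, was at 12.3 and 11.2 RPKM in HF and at 4.70 and 7.52 RPKM in HB mRNA, a log2 difference of -0.87 (limma adjusted p = 0.0433) without a call. Of its relatives, Tfe3 had a difference of 0.02 and Tfec of -0.97 (adjusted p = 0.0191), without a call. The RPF of Lamtor3 was called higher (1.48), and Tfec was called higher in TE (3.04) from RPF values that included 0 in HF2.

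**Figure D4:**
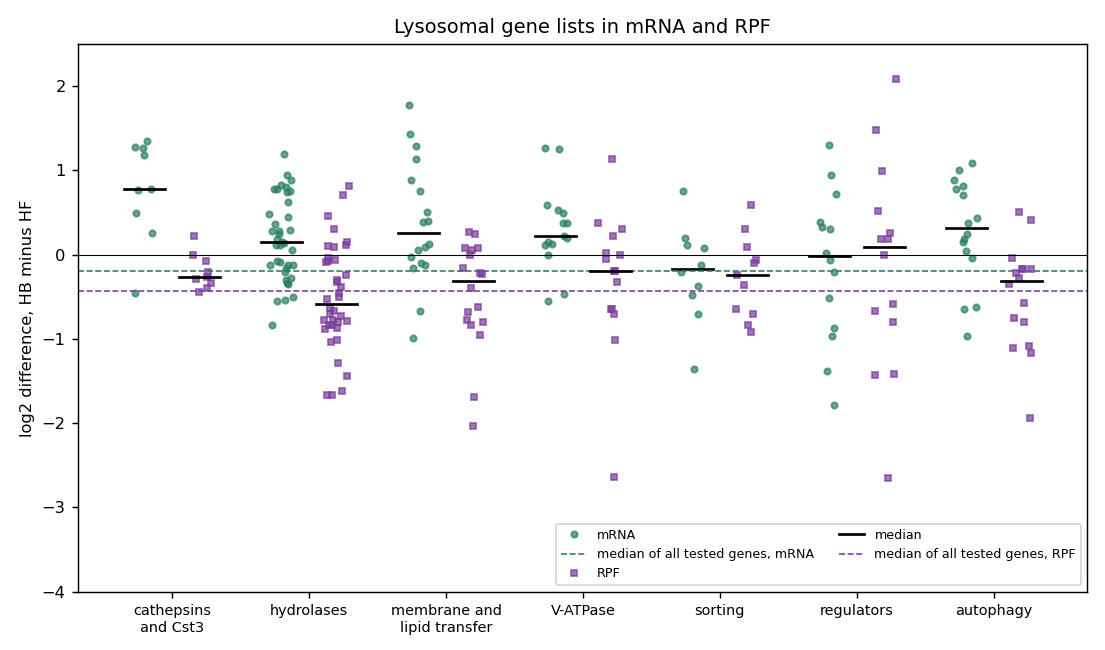
Log2 differences (HB minus HF) of each tested gene in mRNA (circles) and RPF (squares) for the cathepsins with Cst3 and for 6 other lists, with a bar at the median of each and dashed lines at the medians of all tested genes, -0.19 in mRNA and -0.43 in RPF. The 9 cathepsin and Cst3 genes have a median of 0.78 in mRNA and -0.26 in RPF, and the hydrolases 0.14 and -0.58.

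Some markers of macrophages were higher in HB mRNA, as several cathepsins were. The 18 macrophage markers had a summed mRNA level of 211 and 262 RPKM in HF and 348 and 333 RPKM in HB. Of 17 tested, 12 had a positive difference and 1 was called higher, Lyz2 (lysozyme), at 5.19 and 11.5 RPKM in HF and at 38.3 and 35.6 RPKM in HB. At an adjusted p under 0.05 in limma, 5 markers were higher in HB and 0 lower: Lyz2 (2.11), Cd5l (1.27), C1qc (1.15), Marco (0.94) and C1qb (0.79), the last 4 named after their values were seen. That is 5 of 17, against 7.92% of all genes. Vsig4 had a difference of 0.99 (adjusted p = 0.0513), and the other 11 ran from -0.75 to 0.53. Clec4f, which marks Kupffer cells, was at 72.6 and 64.4 RPKM in HF and at 48.9 and 49.6 RPKM in HB, and Cd68 and Csf1r had differences of -0.10 and 0.12. Adgre1, which encodes F4/80, was low, at 1.06 and 0.678 RPKM in HF and at 2.23 and 0.682 RPKM in HB. In RPF the summed level of the 18 markers was 402 and 289 RPKM in HF and 391 and 185 RPKM in HB, and Cd68 was listed at 0 in both HB libraries. No macrophage marker was at 0 in all libraries of an assay, and the part of macrophages in the cathepsin and Cstb values was not tested. Markers of other cells varied in direction. The stellate cell markers had a summed mRNA level of 46.5 and 41.0 RPKM in HF and 77.1 and 51.4 RPKM in HB, with 0 of 8 called in limma (1 higher and 1 lower at an unadjusted p under 0.05) and a median of -0.03. Of 8 neutrophil markers, 4 were tested, and all 4 were lower at an adjusted p under 0.05, against 19.1% of all genes, with a median of -1.43. Their summed level over all 8 was 13.6 and 61.1 RPKM in HF and 5.02 and 5.99 RPKM in HB. A mean of 1 RPKM over all libraries can be reached through the HF group alone, so the filter favours such a direction and the count is a description. Of 9 endothelial markers, 1 was called lower, Stab1 (-1.52), and in 6 both HB libraries were below both HF libraries, against 43.3% of all genes, with a summed level of 98.7 and 98.8 RPKM in HF and 69.0 and 84.6 RPKM in HB. The part of these cells in the results was not tested either.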

How the data were processed

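Liver RNA-seq and Ribo-seq libraries were compared between the HF and HB groups. The authors used FANSe2 to map reads (mm10) and deposited each library as RPKM per gene; the sources used here do not say whether RPF counting was limited to coding sequence. Their edgeR test needs counts and was not used. Of 24539 RNA-seq entries, 4 sharing a symbol were left out.

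A gene was tested where its RPKM averaged 1 or more. The test was two-sided, by limma 3.58.1 (R 4.3.3) with a mean-variance trend, on log2(RPKM + 1) with a term for group alone, and p-values were adjusted over all genes. With 2 libraries against 2, an exact permutation test cannot go below p = 0.333 and was not used. Whole reads were recovered from the steps of 1 read for 99.05% of the RNA-seq and 99.99% of the Ribo-seq values above 0, within 0.003 reads plus 1e-06 of the reads. The mRNA and RPF calls were tried on simulated reads, in which the changed genes were drawn from those with more reads. TE and the recovery of reads were not tried in this way.

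All 10 members are described, and of each further list up to 3 called genes per direction are named, by the largest log2 difference. The members and lists were chosen with earlier results of these data known. Gene positions and exon overlaps are from GENCODE M21 (GRCm38). Alternatives were another pseudocount, 2 other filters, a common median, a common sum, no trend, a replicate block, an adjusted p, each library left out, voom on recovered reads, an interaction model for TE and crossed numbers for TE. A crossed replicate block for mRNA was added after seeing the data.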

Additional observations from a re-analysis of the deposited data

How the results depend on the processing

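Without Cstb, which was not tested, each difference and count of calls was recomputed under each alternative. Of these, 134 of 153 values in mRNA, 125 of 143 in RPF and 143 of 153 in TE kept their direction and their side of the threshold, or their count within 1.5 times. Other filters, no trend, a replicate block and an adjusted p leave each log2 difference unchanged by construction. So do the interaction model and crossed numbers in TE. These totals are therefore not a measure of stability. Called mRNA members other than Cstb numbered 3, against 1 (Ctsd) with no filter on low values (0.459% of all genes) and 0 to 4 when a library was left out, with 0 without HF1 (1.55% of all genes), 1 (Ctss) without HF2 (2.26%), 2 without HB1 (2.26%) and 4 without HB2 (4.70%). RPF members called lower numbered 0, against 1 (Ctsh) with a common sum (23.8% of all genes) and 0 to 1 with a library left out (Ctss without HB1, 23.3%). TE members called lower numbered 0, against 4 (Ctsd, Ctsh, Ctsl and Ctss) with a common sum (14.1% of all genes) and 0 to 1 with a library left out (Ctss without HB1, 13.4%). The common sum moved the median of all genes from -0.43 to -1.16 in RPF and from -0.35 to -1.03 in TE, and the common median moved it from -0.19 to 0.08 in mRNA and from -0.43 to -0.10 in RPF.

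Several RPF differences, none of which had passed the test, changed sign. With a common median they were 0.12 for Ctsb, 0.26 for Ctsc, 0.06 for Ctsd and 0.03 for Ctsz, with a common sum -0.86 for Ctsl and -0.65 for Cst3, and with voom -0.01 for Ctsl. With each library left out in turn they ranged from -0.69 to 0.01 for Ctsa, -0.55 to 0.15 for Ctsb, -0.19 to 0.05 for Ctsc, -0.14 to 0.15 for Ctsl, -1.50 to 0.63 for Ctss, -0.60 to 0.02 for Ctsz and -0.06 to 0.51 for Cst3. The mRNA difference of Ctsc ranged from -0.18 to 0.69. In TE, Ctsa was at -0.68 with a common sum and ranged from -0.27 to 0.52 with a library left out, and Ctsc from -0.78 to 0.13. The cause of these changes was not tested beyond the shift of the median and the libraries named.

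The replicate numbers are shared labels: deviations of HF1 and HB1 from their group means had a correlation of -0.104 across 10687 genes in mRNA and -0.0138 in RPF. With the replicate number as a block, 4 mRNA members were called, Ctss joining the 3, and all calls rose from 246 to 498 higher and from 701 to 1229 lower. The crossed replicate block gave 474 and 1303. Calls over all genes also changed with no filter (77 higher and 188 lower in mRNA), with an adjusted p under 0.05 (535 and 1353 in mRNA, 0 in RPF and TE), with voom (454 and 688 in RPF) and with a common sum (42 and 1332 in TE). Depth limits the RPF and TE results: 3 reads on a gene of 1 kb equal 21.1 RPKM in the Ribo-seq library HB2 and 0.257 RPKM in the RNA-seq library HF1.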
